A study of Sus scrofa with 18 samples.

Results

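Interleukin 1 beta, interleukin 18, the interleukin 1 receptor and caspase 1 were followed in pig kidneys through transplantation, with and without carbon monoxide (CO). The members were listed by name, with earlier results of these data known. Every probe set of the Affymetrix pig array was taken whose only gene symbol in the platform annotation was IL1B, IL18, IL1R1 or CASP1. That gave 4 genes of the 6765 genes named on the array, measured by 6 of the 23999 probe sets tested. IL1B and IL1R1 had 2 probe sets each, called here the brighter and the dimmer, and IL18 and CASP1 had 1 each.

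The series holds 18 arrays of total kidney RNA, each from 1 pig kidney. Naive kidneys (n = 2) were not transplanted. Transplanted kidneys were taken after 4 h or 24 h, either untreated or treated with CO (n = 4 in each of these 4 groups). Donors 1 to 4 each gave 1 untreated and 1 CO kidney for the 4 h groups, and donors 5 to 8 did so for the 24 h groups. The labels give no strain, age or CO dose and do not say whether donor, graft or recipient received the gas. The treatment field reads air for the CO kidneys too, so their title and source, which name CO, were followed. No sham-operated kidney is among the groups, so surgery, cold storage and reperfusion are all contained in each difference from naive.

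IL1B and IL18 are made as inactive precursors. Caspase 1, itself activated inside protein complexes called inflammasomes, cuts both into the forms that leave the cell, and the membrane receptor IL1R1 then passes the signal of interleukin 1 on to NF-kappa B through the adaptor MYD88 and the kinase IRAK1. In the kidney, IL1B is made mainly by activated macrophages and neutrophils, while tubular epithelium can also hold IL18. The arrays measured messenger RNA only, so they carry no information on the cutting of the precursors.

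Values are log2 levels per probe set, and a level of one probe set cannot be set against that of another. Background, taken as the 95th percentile of 17 tag control probe sets, was 1.61. Differences are given as log2 changes ± the standard error from limma, a linear model fitted over all probe sets and all 18 arrays, and called where the Benjamini-Hochberg adjusted p was under 0.05. In whole tissue, more cells of a type and more RNA per cell cannot be told apart. Proximal tubule markers were high in the naive kidneys, with a mean log2 level of 10.2 to 10.3 over 6 genes. Array medians lay between 3.75 and 3.94. The difference between the 3' and 5' ends of actin RNA, a sign of RNA quality, ran from 1.32 to 2.06 in the 4 h groups and from 1.20 to 2.79 in the 24 h groups, with overlap between all groups. For GAPDH it ran from 1.03 to 1.33 in naive kidneys, from 0.91 to 1.54 in the 4 h groups and from 1.14 to 2.28 in the 24 h groups. The highest GAPDH values were thus at 24 h, and the part of RNA quality in the 24 h differences was not tested. Array files carry a batch mark in their names: batch 1 holds 1 naive array and donors 1, 3 and 4, batch 2 the other naive array, donor 2 and the untreated kidney of donor 5, and batches 3 and 4 the remaining 24 h arrays, with the CO kidney of donor 6 alone in batch 4.

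**Figure D1:**
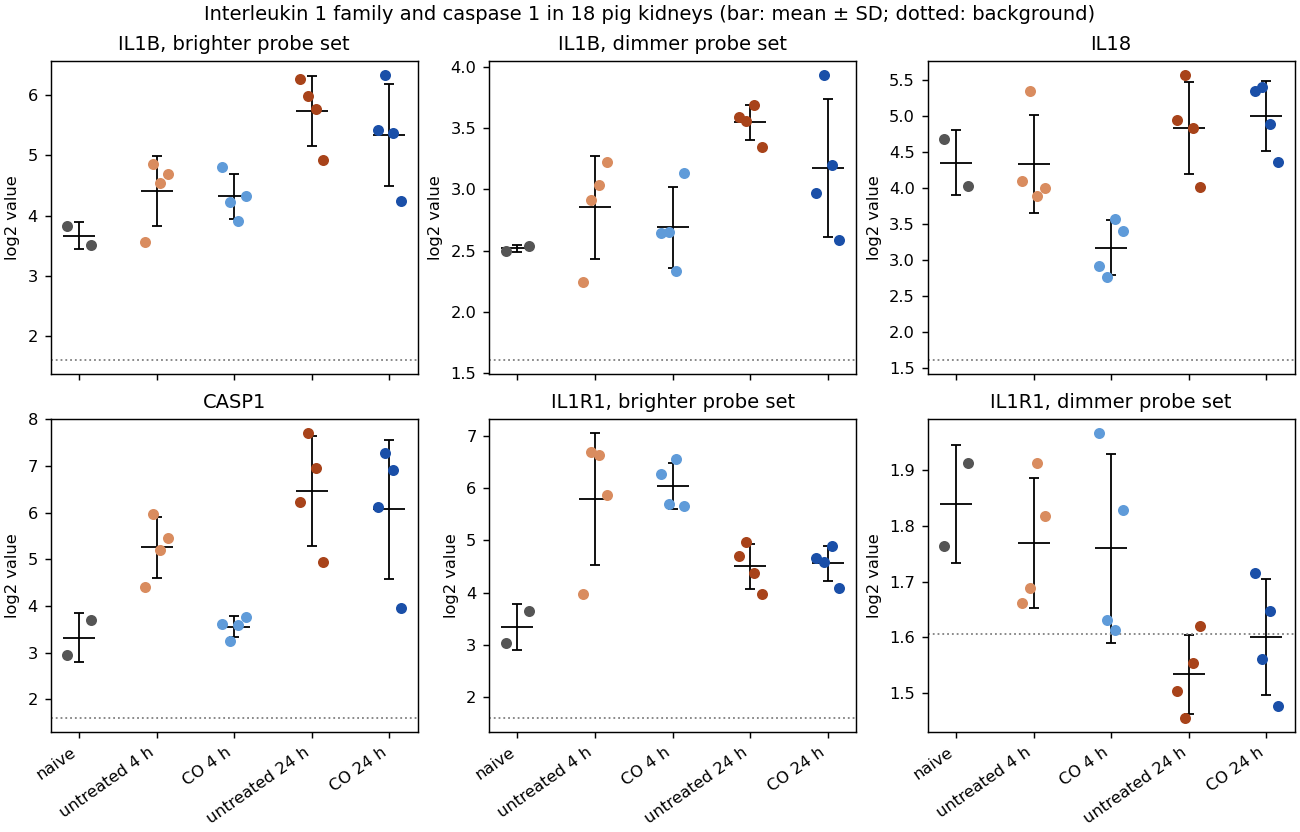
The log2 value of each of the 6 probe sets is plotted for each kidney (points), with the mean ± SD of each group (bars) and the background of 1.61 (dotted line). CASP1 and IL18 lay low in all 4 CO kidneys at 4 h and higher at 24 h, IL1B was highest at 24 h, and IL1R1 (brighter probe set) was highest at 4 h, apart from 1 untreated kidney at 3.98.

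IL1B, the secreted cytokine, was higher at 24 h than in naive kidneys. At the brighter probe set the naive kidneys read 3.82 and 3.51. The untreated 4 h kidneys of donors 1 to 4 read 3.56, 4.86, 4.54 and 4.68, and the CO 4 h kidneys 4.81, 4.23, 3.92 and 4.33. The untreated 24 h kidneys of donors 5 to 8 read 6.26, 5.97, 5.77 and 4.93, and the CO 24 h kidneys 5.41, 6.32, 5.37 and 4.24. Every 24 h kidney lay above both naive kidneys, whereas 4 h kidneys overlapped the lower 24 h kidneys, and the untreated 4 h kidney of donor 1 lay within the naive range.

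Against naive, IL1B rose by 24 h without CO (2.07 ± 0.47, a fold of 4.19 with a 95% interval from 2.10 to 8.36, limma adjusted p = 0.0081) and with CO (1.67 ± 0.47, a fold of 3.18, adjusted p = 0.0298). At 4 h the changes were 0.75 ± 0.47 without CO and 0.65 ± 0.47 with CO (limma adjusted p = 0.4 and 0.406), which did not pass. From 4 h to 24 h IL1B rose in untreated kidneys (1.32 ± 0.38, limma adjusted p = 0.039), and the change under CO was 1.02 ± 0.38 (limma adjusted p = 0.0793), or 1.38 with a limma adjusted p of 0.0146 without the CO 24 h kidney of donor 8. The dimmer probe set passed in 1 comparison, untreated 24 h against naive (1.03 ± 0.31, limma adjusted p = 0.0351), and its change with CO at 24 h was 0.65 ± 0.31 (limma adjusted p = 0.195). In order, IL1B means were 3.67 in naive, 4.32 in CO 4 h, 4.41 in untreated 4 h, 5.33 in CO 24 h and 5.73 in untreated 24 h kidneys. None of the neighbours in that order that were compared passed the test, and the ranges of untreated 4 h and CO 24 h, which were not compared, overlap.

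These calls rest on few arrays. At the brighter probe set, IL1B at 24 h against naive missed the threshold without naive array 1 or 2 (limma adjusted p = 0.0609 and 0.0884 untreated, 0.146 and 0.196 with CO), with CO also without donor 5, 6 or 7 (0.0567, 0.0693 and 0.0619), and with batch as a term (0.0742 untreated and 0.41 with CO). With CO it also missed with only the compared groups fitted (0.068), and the log2 change lay between 1.34 and 2.54 in all of these fits. No CO 24 h kidney shares a batch with a naive array, so batch and group cannot be told apart there. Of the untreated 24 h kidneys only that of donor 5 does, and it lay 2.75 above that array. The untreated rise from 4 h to 24 h was likewise lost without untreated donors 1, 3, 4, 5, 6 or 7 (limma adjusted p from 0.0605 to 0.116) with only the compared groups fitted (0.0577) and with batch as a term (0.399), and the dimmer probe set without naive array 1 or 2 or untreated donor 5, 6 or 7 (0.0647 to 0.198), with all arrays set to a common median (0.0546) and with batch (0.23). RefSeq also lists a second pig gene, IL1B2, with IL1B among its synonyms, and the suffix of the dimmer probe set marks it as able to bind more than 1 transcript, so a share of IL1B2 in these signals was not tested.

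IL18, the second cytokine that caspase 1 processes, had its lowest values in the CO kidneys at 4 h. Naive kidneys read 4.68 and 4.03. Untreated 4 h kidneys read 4.10, 5.34, 3.89 and 4.00 for donors 1 to 4, and the CO kidneys of the same donors 2.92, 2.77, 3.57 and 3.41. At 24 h untreated kidneys of donors 5 to 8 read 4.94, 5.57, 4.83 and 4.01, and CO kidneys 5.35, 5.41, 4.89 and 4.37. All 4 CO kidneys at 4 h lay below every other array of the series, and the other groups overlap each other.

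Under CO, IL18 rose from 4 h to 24 h (1.83 ± 0.36, a fold of 3.57 with a 95% interval from 2.11 to 6.02, limma adjusted p = 0.00283). This call held without any 1 of the 8 arrays (largest limma adjusted p = 0.0115), and was lost with batch as a term (1.73, limma adjusted p = 0.549), and since no batch holds CO kidneys of both times, batch and time cannot be told apart there. The untreated change over the same time was 0.50 ± 0.36 (limma adjusted p = 0.452). Against naive, IL18 was -1.19 ± 0.44 in CO 4 h kidneys (limma adjusted p = 0.0812), -0.02 ± 0.44 in untreated 4 h kidneys, 0.48 ± 0.44 in untreated 24 h and 0.65 ± 0.44 in CO 24 h kidneys, none of which passed. The first of these passed with only the compared groups fitted (limma adjusted p = 0.0432) and with array weights (0.0399). Means ran from 3.17 (CO 4 h) through 4.34 (untreated 4 h), 4.35 (naive) and 4.84 (untreated 24 h) to 5.00 (CO 24 h), and no neighbours in that order differed past the threshold.

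CASP1, the protease, had the widest range of the 4 genes. Naive kidneys read 2.95 and 3.70. At 4 h, untreated kidneys of donors 1 to 4 read 4.41, 5.96, 5.19 and 5.45, and CO kidneys 3.61, 3.25, 3.60 and 3.77. At 24 h, untreated kidneys of donors 5 to 8 read 6.23, 7.70, 6.96 and 4.94, and CO kidneys 6.11, 7.28, 6.92 and 3.95. At 4 h the untreated and CO ranges did not overlap and the CO kidneys overlapped the naive ones, while at 24 h both ranges overlapped and lay above both naive kidneys.

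Against naive, CASP1 rose by 24 h in untreated kidneys (3.14 ± 0.76, a fold of 8.79 with a 95% interval from 2.88 to 26.9, limma adjusted p = 0.0117) and in CO kidneys (2.74 ± 0.76, a fold of 6.69, limma adjusted p = 0.0278). At 4 h it was 1.93 ± 0.76 without CO (limma adjusted p = 0.162) and 0.23 ± 0.76 with CO (limma adjusted p = 0.892). From 4 h to 24 h CASP1 rose under CO (2.51 ± 0.62, a fold of 5.69, limma adjusted p = 0.0114), whereas the untreated change was 1.21 ± 0.62 (limma adjusted p = 0.264). In order, means were 3.32 in naive, 3.56 in CO 4 h, 5.25 in untreated 4 h, 6.07 in CO 24 h and 6.46 in untreated 24 h kidneys. No neighbours in this order passed a test, and untreated 4 h and CO 24 h, which were not compared, overlap.

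The rise of CASP1 under CO held without any 1 array (largest limma adjusted p = 0.0417) and was lost with batch as a term (1.51, limma adjusted p = 0.742), which also brought the change down by over 1.5 times. As no batch holds CO kidneys of both times, batch and time cannot be told apart there. The rises of CASP1 against naive were lost without naive array 1 or 2 (limma adjusted p = 0.145 and 0.0558 untreated, 0.249 and 0.0975 with CO), with CO also without donor 5, 6 or 7 (0.0524, 0.0686 and 0.074), with batch as a term (0.275 untreated and 0.702 with CO), and, for CO alone, with only the compared groups fitted (0.0785). Of the 24 h kidneys, only the untreated kidney of donor 5 shares a batch with a naive array, and it lay 2.54 above that array.

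IL1R1, the signalling receptor, had its highest values at 4 h. At the brighter probe set naive kidneys read 3.04 and 3.65. Untreated 4 h kidneys of donors 1 to 4 read 3.98, 6.68, 6.62 and 5.87, and CO 4 h kidneys 6.27, 5.69, 6.54 and 5.66. Untreated 24 h kidneys of donors 5 to 8 read 4.70, 4.98, 4.38 and 3.97, and CO 24 h kidneys 4.67, 4.59, 4.89 and 4.08. Apart from the untreated kidney of donor 1, which lay close to naive, all 4 h kidneys lay above all 24 h kidneys, and all transplanted kidneys lay above both naive ones.

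IL1R1 rose against naive by 4 h in untreated (2.44 ± 0.55, a fold of 5.44 with a 95% interval from 2.42 to 12.2, limma adjusted p = 0.0427) and in CO kidneys (2.70 ± 0.55, a fold of 6.49, limma adjusted p = 0.00828). At 24 h it was 1.16 ± 0.55 and 1.21 ± 0.55 (limma adjusted p = 0.18 and 0.174), and both passed with only the compared groups fitted (0.0349 and 0.0262). Under CO it fell from 4 h to 24 h (-1.49 ± 0.45, limma adjusted p = 0.0318), and the untreated change was -1.28 ± 0.45 (limma adjusted p = 0.0856), or -1.89 with an adjusted p of 0.00103 in limma without the untreated 4 h kidney of donor 1. In order, means were 3.34 in naive, 4.51 in untreated 24 h, 4.56 in CO 24 h, 5.79 in untreated 4 h and 6.04 in CO 4 h kidneys, and no neighbours that were compared differed past the threshold.

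The untreated 4 h rise of IL1R1 was lost without naive array 1 or 2 (limma adjusted p = 0.264 and 0.235), without untreated donor 2, 3 or 4 (0.117, 0.127 and 0.0738), with batch as a term (0.0719) and with only the compared groups fitted (0.271). That with CO was lost without naive array 1 or 2 (0.0925 and 0.0717), and the fall under CO without CO donors 1, 3, 5, 6 or 8 (0.0584 to 0.0902) and with batch (0.67). For that fall too, no batch holds CO kidneys of both times. The dimmer probe set stayed between 1.46 and 1.97 on all 18 arrays, near the background of 1.61, and passed in none of the 10 comparisons, so the rises of IL1R1 rest on 1 probe set.

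**Figure D2:**
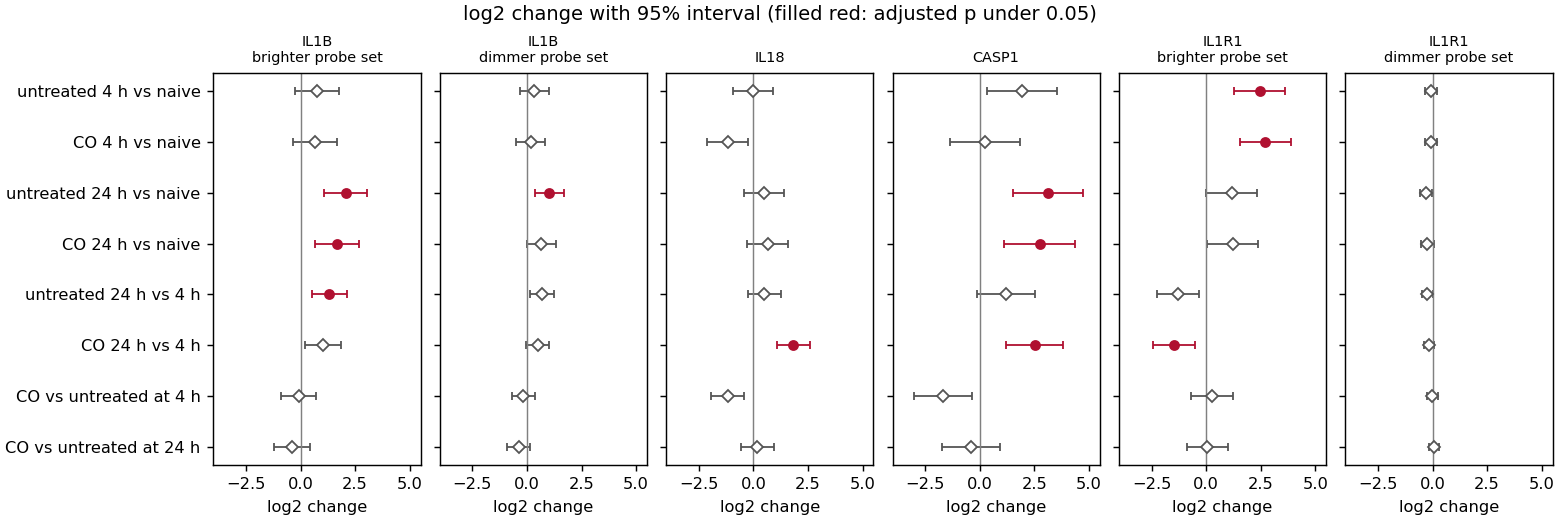
Each panel gives the log2 change of 1 probe set in 8 comparisons (first named group minus second), with the 95% interval from limma, filled red where the adjusted p was under 0.05. IL1B and CASP1 passed at 24 h against naive, and IL1R1 (brighter probe set) at 4 h against naive. From 4 h to 24 h IL18, CASP1 and IL1R1 (brighter probe set) passed in CO kidneys, and IL1B (brighter probe set) in untreated kidneys. No probe set passed between CO and untreated kidneys.

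Set against all probe sets, the called shares were as follows. For untreated 4 h against naive, 1 of 6 member probe sets was called, where 1.5% of all probe sets were. For CO 4 h against naive, 1 of 6 was called, against 13.6% of all. For untreated 24 h against naive, 3 of 6 were called, against 14.6%, and for CO 24 h against naive 2 of 6, against 11.7%. From 4 h to 24 h, 1 of 6 was called in untreated kidneys, against 9.72% of all, and 3 of 6 under CO (2 higher, 1 lower), against 17.6%. The comparisons with naive share the naive arrays, and the members were chosen with earlier results of these data known, so these shares are a description. The median log2 change of the 6 probe sets was 1.10 at 24 h without CO and 0.93 with CO, next to 0.01 and -0.02 over all probe sets.

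Whether CO changed these genes was asked by comparing CO with untreated kidneys at the same time. No member probe set was called at 4 h, at 24 h, over both times or for the difference between times, and in each of these 4 comparisons 0% of all 23999 probe sets were called by limma. At an unadjusted p under 0.05, limma had 787 probe sets (3.28%) at 4 h, 281 (1.17%) at 24 h, 378 (1.58%) over both times and 612 (2.55%) for the difference between times. Each share was below that which a threshold of 0.05 gives on average where nothing differs. At 4 h CASP1 was -1.70 ± 0.62 with CO (95% interval from -3.01 to -0.38, unadjusted p = 0.0147 and adjusted p = 0.999 in limma). IL18 was -1.17 ± 0.36 (95% interval from -1.92 to -0.41, unadjusted p = 0.00462 and adjusted p = 0.999 in limma). Neither passed. The 4 CO and the 4 untreated kidneys did not overlap for either gene, but how many of all probe sets also show this was not counted.

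By donor, CASP1 was lower in the CO kidney of 4 of 4 donors at 4 h, by -0.79 to -2.71, and IL18 in 4 of 4, by -0.32 to -2.58. As the ranges did not overlap, any pairing of these kidneys would give 4 of 4, so these counts add no support. Donor 2 had the widest difference for both genes. Within batch 1, which holds 3 kidneys of each kind at 4 h, the difference was -1.36 for CASP1 and -0.70 for IL18. Batch 2 holds donor 2 alone.

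At 24 h CASP1 was -0.39 ± 0.62 (95% interval from -1.71 to 0.92), lower in 4 of 4 CO kidneys, by -0.04 to -0.99, though the kidneys of donors 5 and 6 were in different batches. Within batch 3, with 3 kidneys of each kind, the difference was -0.87 for CASP1 and 0.07 for IL18. Over all 24 h kidneys IL18 was 0.17 ± 0.36 (95% interval from -0.59 to 0.92), higher in 3 of 4. The change of the CO difference between times was 1.33 ± 0.50 for IL18 and 1.30 ± 0.88 for CASP1 (limma adjusted p = 0.996 for each), so a difference between times was not shown. IL1B and IL1R1 at their brighter probe sets were -0.09 ± 0.38 (95% interval from -0.91 to 0.72) and 0.25 ± 0.45 (from -0.70 to 1.21) at 4 h, and -0.40 ± 0.38 (from -1.21 to 0.42) and 0.05 ± 0.45 (from -0.90 to 1.00) at 24 h. In 3 of 4 donors IL1B was lower with CO at each time.

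**Figure D3:**
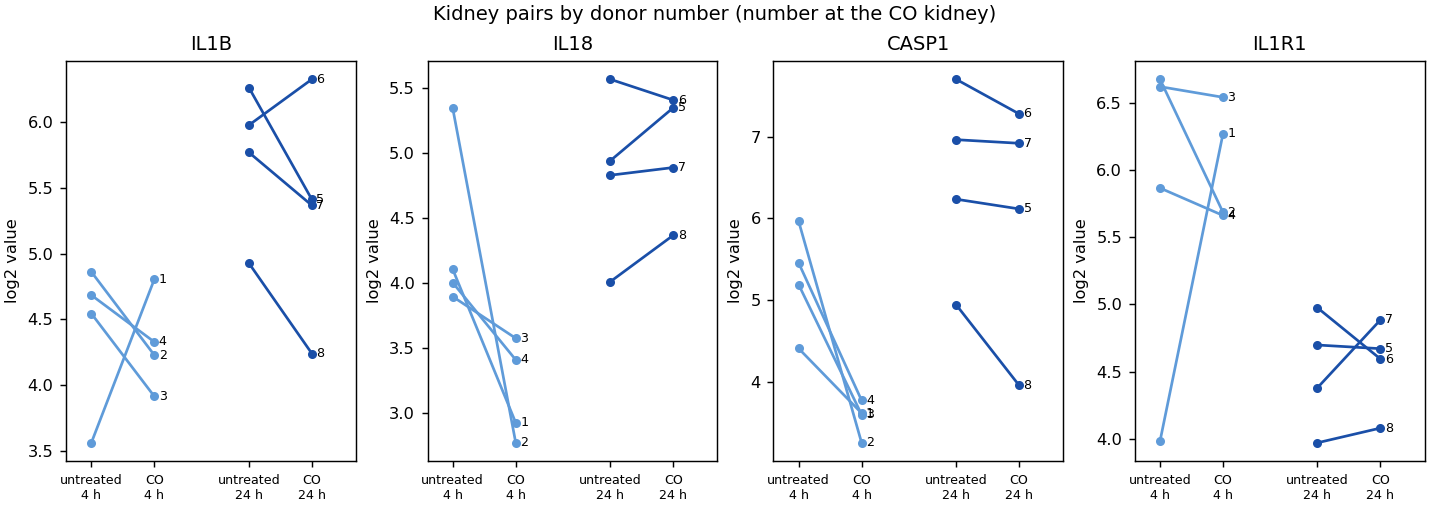
Lines join the untreated and the CO kidney of each donor number (donors 1 to 4 at 4 h, 5 to 8 at 24 h) for IL1B and IL1R1 at their brighter probe sets, IL18 and CASP1, on the log2 scale. All 4 lines of CASP1 and of IL18 go down at 4 h, as any pairing would give where ranges do not overlap. Those of IL1B and IL1R1 go down at 4 h in 3 of 4 donors and up in donor 1.

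The mean level of markers of granulocytes and macrophages, cells which carry CASP1 and IL1B, moved beside CASP1, though not every marker did. For IL1B this held less, as its CO and untreated ranges overlapped at 4 h (-0.09 ± 0.38, brighter probe set) and those of the markers did not. Of 20 markers, listed by name with earlier results of these data known, 16 were measured, with CYBB on the array under its older name GP91-PHOX. Their mean log2 level was 2.98 to 3.65 in naive, 4.17 to 5.61 in untreated 4 h, 3.72 to 4.05 in CO 4 h, 4.27 to 6.03 in untreated 24 h and 3.78 to 5.93 in CO 24 h kidneys. As for CASP1, the 4 h ranges of CO and untreated kidneys did not overlap, and 15 of the 16 markers were lower with CO at 4 h, 9 of them at an unadjusted p under 0.05, where 3.28% of all probe sets were, and none after adjustment in limma. The median log2 change of the 16 was -1.27, next to 0.02 over all probe sets. Among these 9 were the Fc receptor FCGR3A (-1.56 ± 0.51) and AIF1 (-1.19), a protein of macrophages. S100A8, a protein of granulocytes, was below background in both naive kidneys. From 4 h to 24 h, S100A8, S100A9 and S100A12 changed by -0.41, -0.81 and -0.33 without CO. With CO they changed by -0.13, -0.41 and -0.11, and none of these changes passed. Over that time the median change of the 16 markers was 0.52 without and 1.40 with CO, and that of CASP1 was 1.21 and 2.51. Against naive, 0 of 16 were called in either 4 h group, against 1.5% of all probe sets without CO and 13.6% with CO. At an unadjusted p under 0.05 in limma there were 11 without CO and 1 with CO, against 20.7% and 28.4% of all. At 24 h, 9 of 16 were called higher in untreated kidneys, against 14.6% of all probe sets called, and 5 of 16 in CO kidneys, against 11.7%. Lymphocyte markers (6 measured) had a mean level of 2.61 to 3.40 in naive and 2.99 to 6.01 in 24 h kidneys, and the proximal tubule markers lay at 5.67 to 8.12 at 24 h. At 4 h the lymphocyte markers lay at 3.13 to 4.19 without CO and at 2.61 to 3.61 with CO. Their median log2 change with CO at 4 h was -0.73, with 0 of 6 at an unadjusted p under 0.05 in limma. The part of these cells in the results for CASP1, IL18 and IL1B was not tested.

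**Figure D4:**
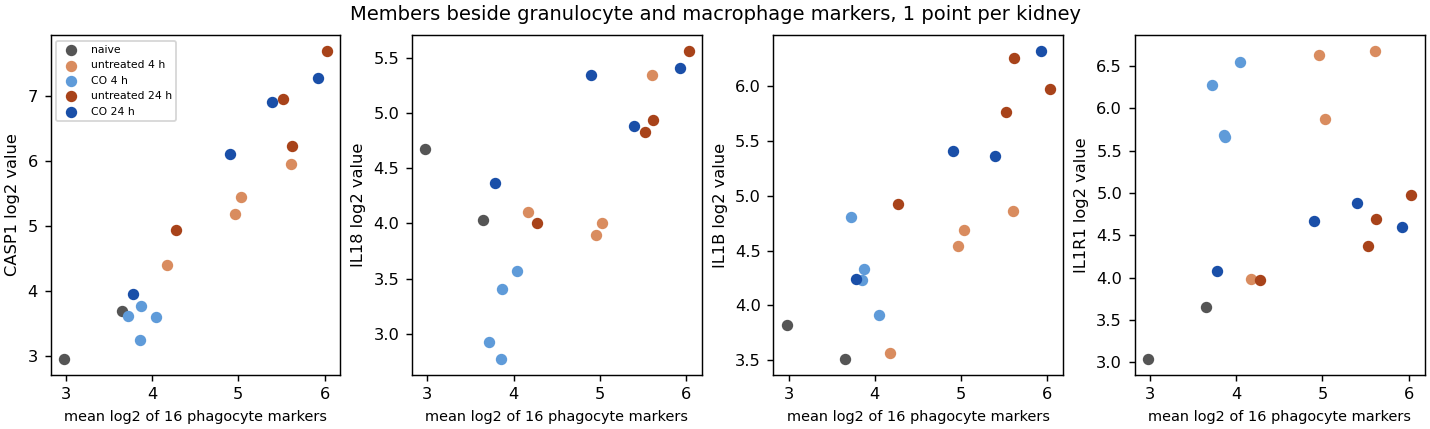
Each point is 1 kidney, with the mean log2 level of 16 granulocyte and macrophage markers across and the log2 value of CASP1, IL18, IL1B or IL1R1 (brighter probe sets) upward, coloured by group. For CASP1 the points lie close to a line, with the CO 4 h kidneys (markers at 3.72 to 4.05) beside the naive ones, while for IL1R1 7 of the 8 kidneys at 4 h stand above all others.

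The genes whose pattern over the 18 arrays was most like each member were listed by Pearson's r among 6764 other genes, as a description that rests on 5 groups and their shared arrays. For CASP1 they were GMFG (0.99), FCGR3A (0.98), GP91-PHOX (CYBB, 0.98), a subunit of the oxidase of phagocytes, AIF1 (0.97) and HK3 (0.97), the hexokinase of blood cells. After the group means were removed these values were 0.97, 0.96, 0.95, 0.96 and 0.95. For IL1B they were CRELD2, PPA1, CD180, PRPS1 and FBL (all 0.92), of which CD180 is a surface protein of B cells and macrophages and CRELD2 a protein of the stressed endoplasmic reticulum. For IL18 they were DDOST (0.95), a subunit of the enzyme that adds sugars to new proteins, RPSA (0.90), LOC100519177 (0.89), KDELC1 (0.88) and RSU1 (0.88). For IL1R1 they were NPC1 (0.96), a cholesterol transporter of lysosomes, SUPT6H (0.95), the phosphatase PTPN1 (0.95), the smooth muscle protein SMTN (0.94) and the amino acid transporter SLC7A1 (0.94). After the group means were removed, r fell to between 0.78 and 0.81 for the genes near IL1B. It fell to between 0.75 and 0.87 for those near IL18, and to between 0.83 and 0.90 for those near IL1R1. Of these 20 genes, FCGR3A, GP91-PHOX and AIF1, all near CASP1, are also among the 16 phagocyte markers.

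Other genes of the pathway were taken from a list of 69 entries, also made with earlier results known, of which 26 were measured. Of these 26, 1 was called higher at 4 h without CO, where 1.5% of all probe sets were called, and 6 higher and 1 lower with CO, where 13.6% were, against naive. At 24 h 6 were higher and 1 lower without CO (14.6% of all called), and 4 higher and 1 lower with CO (11.7%). With batch as a term, none of the 26 was called at 24 h or at 4 h without CO against naive, or from 4 h to 24 h, so each of those calls given below is lost there, while 8 were called at 4 h with CO. Their median log2 change against naive was 0.35 and 0.29 at 4 h and 0.65 and 0.56 at 24 h (without and with CO), where that of all probe sets lay between -0.03 and 0.01.

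Of 2 further ligands and antagonists, IL18BP, the soluble protein that binds and neutralises IL18, rose by 24 h without CO (1.88 ± 0.48, limma adjusted p = 0.0158), with a mean of 7.05 ± 0.50 (SD, n = 4) against 5.17 in naive kidneys. With CO it was 1.42 at 24 h (limma adjusted p = 0.0673). IL1A, the other interleukin 1, was between 0.12 and 0.44 against naive and passed in no comparison. Of 2 further receptors, IL18R1, a chain of the IL18 receptor, and the inhibitory SIGIRR passed in none.

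Of 3 measured inflammasome and cell death genes, CASP8, an initiator of apoptosis that can also cut IL1B, rose by 4 h with CO (1.36 ± 0.35, limma adjusted p = 0.0213). Without CO it was 0.76 at 4 h (limma adjusted p = 0.231). GSDMD, whose cut product opens the pores through which IL1B leaves, was 1.05 at 24 h without CO (limma adjusted p = 0.0545) and 0.85 with CO (0.132). TXNIP, a binding partner of the inflammasome sensor NLRP3, passed in none.

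Of 8 signalling genes, IRAK1, the kinase below the receptor, rose in CO kidneys at 4 h (1.08 ± 0.34, limma adjusted p = 0.0437) and at 24 h without (1.60 ± 0.34, limma adjusted p = 0.00537) and with CO (1.67 ± 0.34, limma adjusted p = 0.0055). TOLLIP, which restrains IRAK1, fell in the same comparisons, with log2 changes of -0.66 at 4 h with CO and -0.84 and -0.85 at 24 h (limma adjusted p = 0.0442, 0.0127 and 0.0153). In untreated 4 h kidneys the changes were 0.93 for IRAK1 and -0.50 for TOLLIP, which did not pass (limma adjusted p = 0.134 and 0.181). NFKB1 was at or near background in every group, and MYD88 passed in no comparison.

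Among 11 targets and feedback genes, 1 rose by 4 h without CO, 4 with CO, 4 by 24 h without CO and 3 with CO, read against the same shares of all probe sets (1.5%, 13.6%, 14.6% and 11.7%). The chemokine CCL2 rose by 3.91 ± 1.08 in CO kidneys at 4 h, by 4.42 ± 1.08 at 24 h without CO and by 4.27 ± 1.08 with CO (limma adjusted p = 0.0274, 0.0123 and 0.018). ICAM1, the adhesion molecule of activated endothelium, rose in all 4 groups, by 2.01 to 2.40 (limma adjusted p from 0.00253 to 0.0405). VCAM1, its counterpart for lymphocytes and monocytes, rose by 2.29 and 2.31 at 24 h (limma adjusted p = 0.0225 and 0.0261), and from 4 h to 24 h by 1.79 and 1.86 (limma adjusted p = 0.0372 and 0.0203). CXCL8, the neutrophil attractant, was below background in both naive kidneys and at least 3.44-fold higher in CO 4 h and at least 3.74-fold higher in untreated 24 h kidneys (limma adjusted p = 0.0457 and 0.035). In untreated 4 h kidneys CXCL8 was at least 5.16-fold higher than in naive ones, which did not pass (limma adjusted p = 0.0545). NFKBIA, the inhibitor that NF-kappa B itself induces, rose in CO kidneys at 4 h (1.19 ± 0.32, limma adjusted p = 0.0254). Its change in untreated kidneys at 4 h was close to that, 1.17 ± 0.32, and did not pass (limma adjusted p = 0.0664). Between CO and untreated kidneys no gene of the list passed. The smallest p values were those of CASP8 at 4 h (0.60 ± 0.29) and for the difference between times (-0.69 ± 0.41), and of IL6 at 24 h (0.67 ± 0.28) and over both times (0.46 ± 0.20), with limma adjusted p values of 0.996 to 1.

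**Figure D5:**
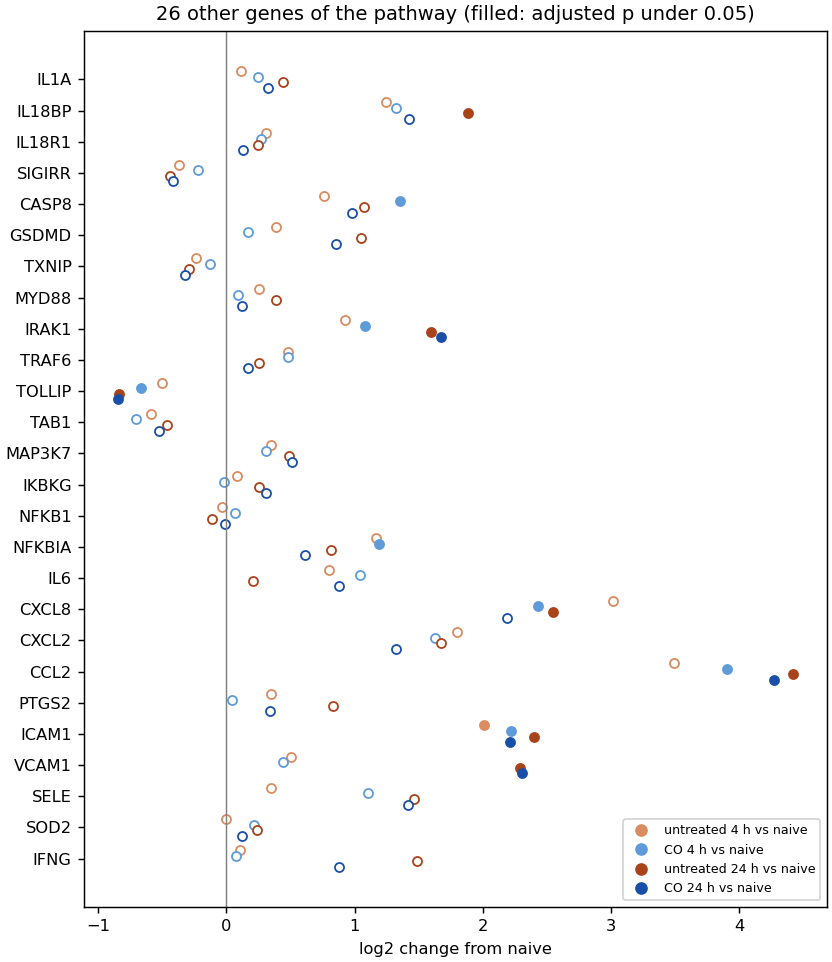
The log2 change from naive is plotted for 26 other genes of the pathway in the untreated and CO kidneys at 4 h and 24 h, filled where the limma adjusted p was under 0.05. At 24 h CCL2, CXCL8, ICAM1 and VCAM1 lie farthest to the right and TOLLIP farthest to the left, whereas at 4 h VCAM1 lies at 0.50 and 0.44 and TAB1 lies left of TOLLIP.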

How the data were processed

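The measurements are Affymetrix arrays of RNA from 18 pig kidneys. The deposited log2 values are 1 summary per probe set, normalised between arrays with RMA per the submitters' processing notes (version and settings not given in the sources used here). The array has 24123 probe sets; without its 124 controls, 23999 were tested, with no filter. Of these, 10069 have 1 platform gene symbol, 198 several and 13732 none. Symbols were updated through RefSeq (Sscrofa11.1), and list entries not found were looked for among its synonyms. The linear model had 5 groups, taken from the sample titles, and no block (limma version 3.58.1, R version 4.3.3, empirical Bayes, two-sided). P-values were adjusted over all probe sets by Benjamini-Hochberg. Separate animals are named through donor numbers; for naive kidneys nothing says so, and their array numbers occur again for donor 4, so an animal may be shared. P-values there measure only the spread between these samples.

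The members and lists were chosen with earlier results of these data known. For listed genes the probe set of highest mean was used. Named were up to 8 called genes per comparison, ordered by size, or else that of smallest p, and 5 genes per member for likeness. A group wholly at or below background gave a bound, against the background.

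The labels give CO and untreated kidneys the same 8 donors. With group means removed, same-donor arrays correlated by over 0.1 in 6 of 8 donors, and the partner was the best match in 4. Alternatives were the variance model, a filter on dim probe sets, a common median, array weights, batch, donor blocks (statmod 1.5.0), fewer groups and leaving out each array. The fit was tested on simulated data. Plots were made in matplotlib (version 3.10.9, Python 3.11.15).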

Additional observations from a re-analysis of the deposited data

Results flagged for a closer look

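In 60 groups of 4 kidneys (15 probe sets named above in 4 groups), 4 held a kidney far from the other 3 by Dixon's criterion at the 95% level, where chance gives about 5%. IL18 in the untreated 4 h kidney of donor 2 was 5.34, above 3.89 to 4.10 in the others. CCL2 in the untreated 24 h kidney of donor 8 was 7.92, below 9.38 to 9.52. VCAM1 in the CO 24 h kidney of donor 8 was 8.37, below 9.21 to 9.36, and IRAK1 in the CO 4 h kidney of donor 4 was 5.96, below 6.72 to 6.88.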

How the results depend on the processing

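With array weights, the member probe sets called against naive numbered 2 and 5 in untreated kidneys at 4 h and 24 h and 2 and 4 in CO kidneys, and from 4 h to 24 h 4 (untreated) and 5 (CO), in place of 1, 3, 1, 2, 1 and 3. These include the dimmer IL1R1 probe set at 24 h without CO (-0.34, limma adjusted p = 0.0297). With batch as a term the numbers were 0, 0, 1, 0, 0 and 0. With only the compared groups they were 0 (untreated 4 h), 4 (untreated 24 h), 2 (CO 4 h), 1 (CO 24 h), 0 (untreated over time) and 3. Leaving out 1 array gave 0 to 1, 0 to 3, 0 to 1, 0 to 2, 0 to 1 and 2 to 3. Every alternative gave 0 member probe sets between CO and untreated kidneys.

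The donor pairing changed no count of member calls: with the donor as a random block (correlation 0.128) they were 1, 3, 1, 2, 1 and 3, and 0 for CO, as with the donor as a fixed term. The list of 26 genes had 0 calls at 24 h against naive with batch as a term, and 14 (untreated) and 12 (CO) with array weights, in place of 7 and 5.

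Changes that turned sign were all uncalled. IL18 at 4 h without CO against naive was 0.018 with batch, and CO minus untreated at 24 h was -0.059 for IL1R1 and -0.19 for IL18 with array weights. Without 1 array, IL18 and the dimmer IL1R1 probe set at 4 h without CO against naive ranged from -0.35 to 0.31 and from -0.14 to 0.0055, and CASP1 at 4 h with CO from -0.14 to 0.61. CO minus untreated at 4 h ranged from -0.35 to 0.55 for IL1R1 (dimmer probe set -0.079 to 0.039) and from -0.38 to 0.055 for IL1B. At 24 h it ranged from -0.13 to 0.21 for IL1R1, from -0.90 to 0.31 for CASP1 (above 0 without untreated donor 6 or CO donor 8) and from -0.11 to 0.41 for IL18. Over both times IL1R1 ranged from -0.15 to 0.30 (dimmer probe set -0.0062 to 0.053), and the difference between times from -0.50 to 0.40 for IL1R1 and from -0.63 to 0.061 for IL1B. The cause of these changes was not tested. With 2 naive arrays and 4 per other group, the number of arrays limits the precision.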

Other observations

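The 2 kidneys of donor 8 stood lowest of their groups at 24 h. The CO kidney had the lowest value of all 6 member probe sets and the untreated kidney that of 5 of 6, a pattern noticed after the values were seen. Their granulocyte and macrophage markers were also lowest, at a mean log2 level of 3.78 with CO and 4.27 without, while the other 24 h kidneys lay between 4.90 and 6.03. The CO kidney of donor 8 also had the widest difference between the 3' and 5' ends of all 18 arrays, for actin (2.79) and for GAPDH (2.28), while the untreated kidney had 1.74 and 1.55. The part of RNA quality in its low values was not tested. The untreated 4 h kidney of donor 1 was lowest for 5 of 6 probe sets in its group, with a marker level of 4.17 against 4.96 to 5.61.

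The members did not move as 1 block over the 18 arrays. The value of r between CASP1 and IL1B (brighter probe sets) was 0.86 and between CASP1 and IL18 0.78, and that between IL1R1 and CASP1 was 0.02. After the group means were removed the last became 0.56.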
